A study of Danio rerio with 35 samples.

Results

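The genes described here carry names given to parts of the motile cilium, together with foxj1a and foxj1b, the forkhead regulators of ciliated cells. A name does not make every member a ciliary part. In the roles used below, 15 members were placed in 2 groups named other, spag7, spag9 and spag9a among them. Members were chosen by name alone, as dynein chains, dynein assembly factors, radial spoke proteins, docking and regulatory complex proteins, tektins, sperm associated antigens, cilia and flagella associated proteins, ccdc39, ccdc40 and the foxj1 genes, leaving out dnaaf3l and requiring a mean normalised count of at least 5 in 1 of the 3 tables. Of 103 names that matched, 100 were kept, of 26282 gene identifiers in all. The telencephalon table listed 99 of the 100 and 97 reached the minimum mean, while the Olig2+ table listed 100 and tested 98 and the Mpeg1+ table listed 98 and tested 95.

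A motile cilium beats because dynein motors slide the outer microtubule doublets of its axoneme past each other. Outer dynein arms supply most of the power, inner arms shape the bend, and radial spokes, the nexin link and the central pair coordinate the motors. Dynein arms are put together in the cytoplasm by dedicated assembly factors before they are carried into the cilium, and Foxj1 switches on most of the genes of this programme. In the fish brain, cilia of ependymal cells at the ventricles move the cerebrospinal fluid.

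RNA was sequenced from 35 libraries of adult zebrafish telencephalon. Of these, 20 were whole telencephalon, with 5 libraries of each genotype at 5 months (young wildtype, young mutant) and at 18 months (old wildtype, old mutant), where mutant means grna-/-;grnb-/-, carrying frameshift alleles of both granulin genes. The other 15 were cells sorted at 5 months for a reporter that both genotypes carried, olig2:DsRed (4 wildtype and 4 mutant libraries) or mpeg1:mCherry (3 labelled wildtype and 4 labelled mutant), each pooling 3 telencephali. The olig2 and mpeg1 promoters drive those reporters, and neither sort was aimed at ependyma. The labels do not say whether libraries came from separate families, so p-values measure the spread between these libraries.

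Depth, in M (mega) reads, was 13.9 to 29.4 in telencephalon libraries, 37.1 to 59.3 in wildtype and 6.38 to 21.8 in mutant Olig2+ libraries, and 6.11 to 31.6 in Mpeg1+ libraries. The targeted gene grnb read 408 to 905 in young wildtype telencephalon, 57.2 to 118 in old wildtype and 4.87 to 21.3 in both mutant groups. In Mpeg1+ cells it ran against the labels, at 51.3 to 268 in libraries labelled wildtype and 499 to 635 in those labelled mutant, so directions in those cells are given by label. The other targeted gene, grna, read 397 to 882 in young wildtype and 281 to 582 in young mutant telencephalon. It read 668 to 2153 in old wildtype and 229 to 494 in old mutants. Its wildtype and mutant ranges were 611 to 1873 and 1275 to 2539 in Olig2+ cells, and 30190 to 63711 and 32551.5 to 35094 in Mpeg1+ cells. The microglia list summed to 30555 to 43921 RPM, the unit of reads scaled to a library's total, in Mpeg1+ cells. In Olig2+ cells olig2 itself read 763 to 1873 in wildtype and 181 to 1280 in mutant libraries, and sox10 read 0 in 1 mutant library. Pineal genes, photoreceptor-like transcripts of a neighbouring organ, had a median of 572 to 1211 in 7 telencephalon libraries and 1.46 to 21.3 in the other 13. Those 7 were 4 wildtype libraries (3 young and 1 old) and 3 mutant libraries (2 young and 1 old).

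Most members had a lower mean in old wildtype than in young wildtype telencephalon, by small amounts. Of 97 tested, 68 had a log2 fold change below 0, and the median was -0.31 beside -0.01 over all genes tested. By the calling rule, a limma adjusted p of at most 0.05 and at least 2-fold, 8 members fell and 3 rose, where 5.66% of all genes fell and 5.21% rose. This was 11.3% of members beside 10.9% of all genes, so the share called was near the background. Without the fold threshold 23 fell and 9 rose, where 16.9% of all genes fell and 17.6% rose. The 5 old libraries all lay below the 5 young ones for 18 members (18 of 97, beside 10.3% of all genes) and all above for 7 (beside 10.6%).

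The median log2 deviation of the 97 members from their own means over the 20 libraries put the groups in order. Young wildtype libraries spanned 0.14 to 0.51 and young mutants -0.30 to 0.27. Old wildtype libraries spanned -0.09 to 0.13 and old mutants -0.57 to -0.01. Every young wildtype library lay above every old wildtype and every old mutant library, while the old wildtype and young mutant groups overlapped. Within each group the libraries high in pineal genes had the higher median of this deviation, 0.37 against 0.18 in young wildtype, 0.13 against 0.03 in old wildtype, 0.15 against 0.09 in young mutant and -0.01 against -0.33 in old mutant. With a pineal term in the model, the median of the old wildtype against young wildtype fold changes was -0.21, and it was -0.23 without the 7 libraries. Fewer ciliated cells and less ciliary RNA per cell cannot be told apart in bulk tissue.

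**Figure D1:**
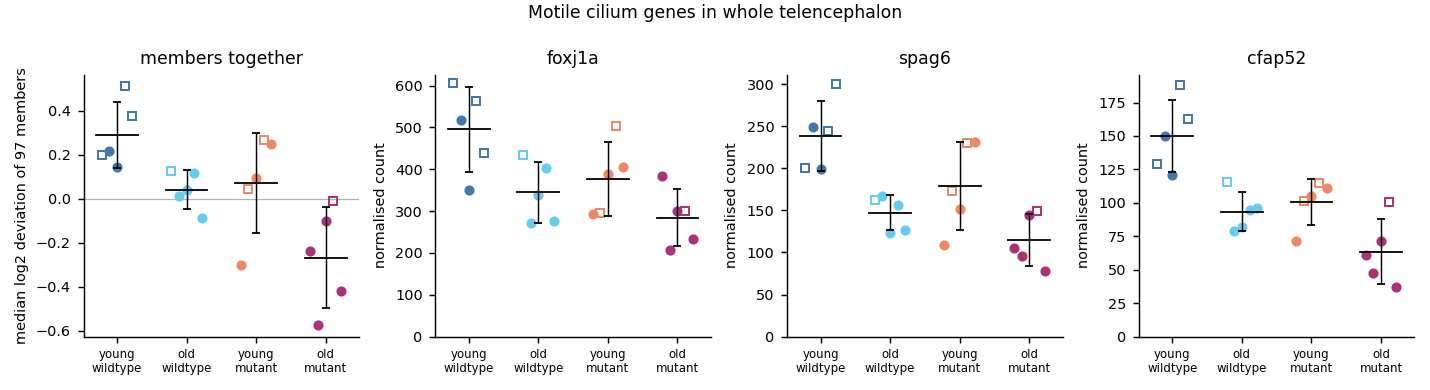
Median log2 deviation of the 97 tested members, and normalised counts of foxj1a, spag6 and cfap52, in each whole telencephalon library by group. Points are libraries, open squares those high in pineal genes, and bars the mean and SD of 5 libraries. By the mean, young wildtype lies highest and old mutant lowest in all 4 panels.

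The regulator foxj1a followed this order. It read 606, 517, 351, 563 and 439 in young wildtype and 435, 272, 338, 403 and 276 in old wildtype libraries. It read 293, 294, 389.5, 503 and 406 in young mutant and 384, 207, 299.8, 299.7 and 232 in old mutant libraries. The ranges of neighbouring groups overlapped, and the age difference in wildtype passed the adjusted p without reaching 2-fold (log2 fold change -0.52 ± 0.19 (SE), limma adjusted p = 0.0429). The other 3 pairs of groups gave -0.40 for young mutant against young wildtype, -0.41 for old mutant against young mutant and -0.28 for old mutant against old wildtype, none past the threshold. Its paralogue foxj1b had log2 fold changes between -0.47 and -0.18 in these comparisons, with no adjusted p past 0.05. For old against young wildtype its direction turned to 0.21 without the libraries high in pineal genes and to 0.035 without old wildtype library 1.

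Inner dynein arm genes held 4 of the 8 members that fell with age. They were dnai7, dnai3, dnali1 and a cfap100 identifier described further on. The intermediate chain gene dnai7 read 110.4, 135, 136, 135 and 120.4 in young wildtype and 66.4, 54.1, 39.5, 41.0 and 46.1 in old wildtype, with no overlap (log2 fold change -1.37 ± 0.19 (SE), limma adjusted p = 2.78e-05). Its young mutant libraries read 74.3, 80.8, 83.8, 116 and 111. Of these, 3 lay between the wildtype ranges and 2 within that of young wildtype, and the difference from young wildtype was -0.46 on the log2 scale (limma adjusted p = 0.0784). The intermediate chain dnai3 went from a range of 48.9 to 65.3 to one of 21.7 to 36.6 (log2 fold change -1.06 ± 0.25 (SE), limma adjusted p = 0.00271). The light chain dnali1 went from a range of 51.8 to 68.1 to one of 21.9 to 48.7 (log2 fold change -1.06 ± 0.33 (SE), limma adjusted p = 0.0193). Neither pair of ranges overlapped. Of the heavy chains, which carry the motor domain, dnah7 gave -0.51 and dnah3 0.97, both past the adjusted p but under 2-fold, and dnah2 gave -0.24, which did not pass. The role as a whole had 12 of 16 fold changes below 0 and a median of -0.53.

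Outer dynein arm and docking genes had fewer calls. Their median was -0.35 with 12 of 14 below 0, and apart from dnah9l none was called. The docking complex genes odad1 and odad4, whose proteins seat the outer arm on the doublet, gave -0.65 and -0.61, both past the adjusted p. The light chain gene dnal1 gave -0.09 and the 2 dnal4 identifiers -0.41 and -0.17, none of which passed.

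Among central pair genes, cfap119 fell from a range of 18.1 to 48.9 to one of 4.58 to 24.2 (log2 fold change -1.30 ± 0.41 (SE), limma adjusted p = 0.0183), with ranges that overlapped. The central pair protein gene spag6 read 201, 249.5, 199.9, 244 and 301 in young and 163, 167, 123, 157 and 127 in old wildtype, without overlap (log2 fold change -0.69 ± 0.21 (SE), limma adjusted p = 0.0145), under 2-fold. The role had 5 of 7 below 0 and a median of -0.48. Of the tektins and proteins inside the doublet microtubules, spag8 went from a range of 83.4 to 117 to one of 21.9 to 77.9 (log2 fold change -1.28 ± 0.35 (SE), limma adjusted p = 0.00769). The doublet protein gene cfap52 went from a range of 121 to 188 to one of 78.6 to 116 (log2 fold change -0.67 ± 0.22 (SE), limma adjusted p = 0.0209). Both were lower in every old library than in any young one.

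Some structural genes went the other way. The tektin gene tekt2 read 3.35, 6.09, 5.43, 15.2 and 10.3 in young wildtype and 29.8, 48.2, 25.8, 51.2 and 23.1 in old wildtype, so it rose without overlap (log2 fold change 2.09 ± 0.50 (SE), limma adjusted p = 0.00331). The doublet protein gene cfap53 gave 0.70 and the spoke head gene rsph1 gave 0.60, both past the adjusted p, under 2-fold and without overlap between the groups. The nexin link and ruler genes, including drc1 and ccdc40, had a median of 0.22 with 3 of 7 below 0, and none was called. Radial spoke genes had a median of -0.22 with 7 of 9 below 0, and none was called.

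Among dynein assembly factors, spag1b, a paralogue of the assembly scaffold spag1a, read 69.6, 69.4, 57.6, 46.8 and 61.6 in young and 35.5, 16.7, 16.1, 10.2 and 18.5 in old wildtype (log2 fold change -1.70 ± 0.29 (SE), limma adjusted p = 0.000223). Its relative spag1a gave 0.69 and dnaaf9 gave 0.65, both past the adjusted p and in the opposite direction. In Tetrahymena the counterpart of dnaaf9 holds outer arms in an inactive form before delivery.

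**Figure D2:**
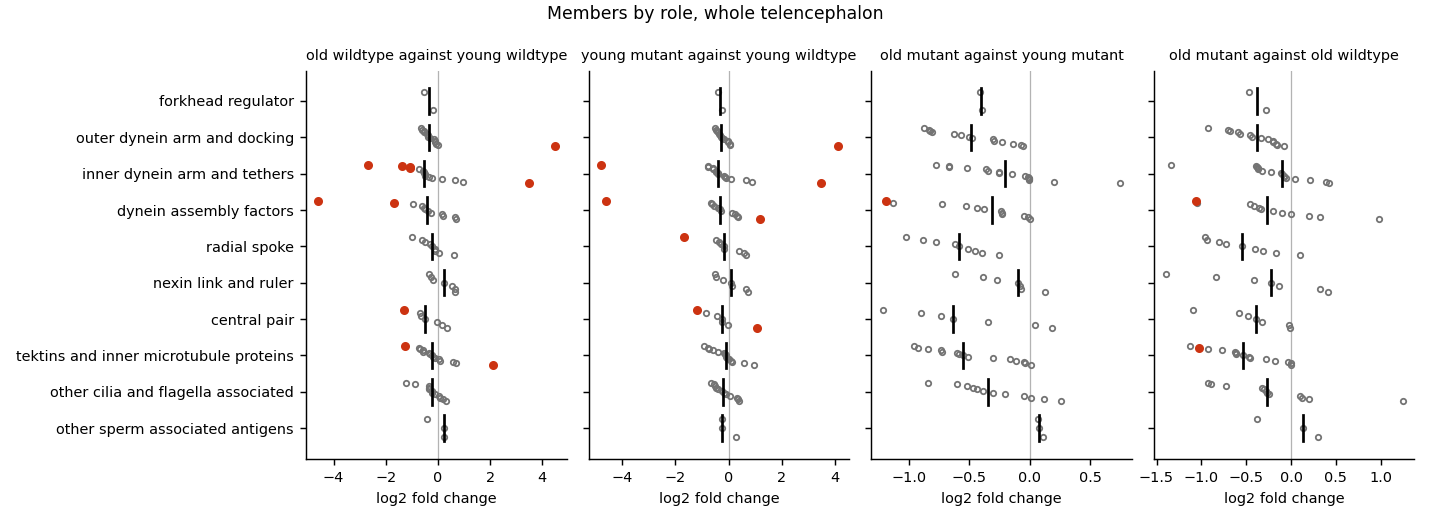
Log2 fold change of each tested member in 4 comparisons of whole telencephalon groups, by role; filled red points were called, open points were not, and black bars are role medians. The scale differs between panels, since the 2 comparisons with young wildtype reach beyond 4 in both directions and the 2 with old mutant do not.

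In telencephalon a few members were present in one state and nearly absent in the other. The assembly factor gene dnaaf3 read 23.4, 13.4, 20.6, 50.6 and 19.6 in young wildtype and 0 in all 15 other telencephalon libraries. Set against 3 reads per library, it was at least 8.61-fold lower in old wildtype and at least 7.75-fold lower in young mutant libraries. The name dnaaf3l, which was left out of the members, went the opposite way, at 17.7 to 29.1 in young wildtype and 292 to 613 elsewhere. The outer arm heavy chain dnah9l read 2.68, 4.87, 5.43, 1.26 and 6.53 in young wildtype and 191, 105, 106, 66.6 and 91.1 in old wildtype libraries. Its mutant libraries read 50.9, 80.8, 84.6, 81.2 and 110.4 when young and 82.0, 44.3, 178, 55.3 and 72.1 when old. It was 27.0-fold higher in old wildtype (log2 fold change 4.49 ± 0.37 (SE), limma adjusted p = 4.09e-08) and 19.6-fold higher in young mutant libraries (log2 fold change 4.08 ± 0.37 (SE), limma adjusted p = 1.80e-07) than in young wildtype. Olig2+ cells did not repeat all of this. There dnaaf3 read 18.1 to 26.2 in wildtype and 17.1, 4.01, 51.4 and 0 in mutant libraries. In the same cells dnah9l read 15.3 to 75.4 in wildtype and 32.1 to 272 in mutants. The name dnaaf3l did go with genotype there, at 19.6 to 32.9 in wildtype and 297 to 740 in mutants. In Mpeg1+ cells dnaaf3l went the other way by its mean, which was lower in libraries labelled mutant. It read 38.7 to 205.7 in wildtype-labelled and at most 41.6 in mutant-labelled libraries, so the ranges overlapped.

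The symbol cfap100, an inner arm tether, is carried by 2 identifiers, and they mirrored each other. ENSDARG00000090342 read 37.5, 34.1, 27.2, 37.9 and 20.5 in young wildtype and 4.58, 8.85, 7.25, 0.854 and 2.31 in old wildtype (log2 fold change -2.70 ± 0.50 (SE), limma adjusted p = 0.000456), and at most 3.17 in mutant libraries of either age. ENSDARG00000038538 read 0, 0, 0, 0 and 20.5 in young wildtype, where 1 library stood apart, and 25.2, 13.8, 20.9, 27.3 and 15.0 in old wildtype (log2 fold change 3.49 ± 0.63 (SE), limma adjusted p = 0.000336). In young mutant libraries it read 14.9, 20.2, 15.5, 27.5 and 21.9 (log2 fold change 3.47 ± 0.63 (SE), limma adjusted p = 0.000450). In Olig2+ cells the mirror pattern was absent. There ENSDARG00000090342 read 28.9 to 61.6 in wildtype and 21.2 to 94.4 in mutant libraries, and ENSDARG00000038538 at most 8.17 in either. Reads of near-identical copies could be split between identifiers by the counting, so the levels of dnaaf3, dnah9l and both cfap100 identifiers are uncertain. Without the young wildtype library that stood apart, and under each other library left out, the counts of called members stayed between 9 and 12 for old against young wildtype. Shares over all genes are not given for these settings.

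**Figure D3:**
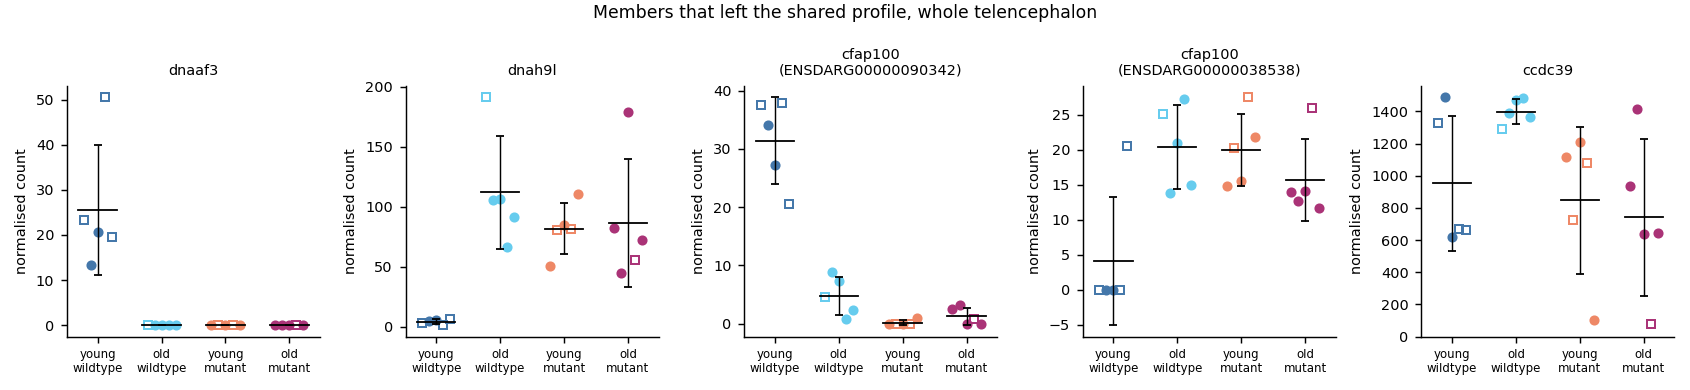
Normalised counts of dnaaf3, dnah9l, the 2 cfap100 identifiers and ccdc39 in each whole telencephalon library; bars are the mean and SD of 5 libraries, and open squares mark libraries high in pineal genes. Young wildtype stands apart from the other 3 groups for dnaaf3, dnah9l and ENSDARG00000090342, while ccdc39 spans 76.2 to 1489 over the 20 libraries and is tight only in old wildtype, at 1290.4 to 1481.

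Young mutant and young wildtype telencephalon share the young wildtype libraries with the comparison above, so the values are given beside it. Of 97 members, 67 were below 0 and the median was -0.23, beside 0.00 over all genes tested. The rule called 4 higher and 4 lower, or 8.25% of members beside 8.79% of all genes, of which 4.97% were higher and 3.82% lower. Without the fold threshold 16 fell and 9 rose, where 13.2% of all genes fell and 13.5% rose. Groups lay apart with the mutant lower for 14 members (beside 11.3% of all genes) and higher for 4 (beside 11.8%). Without the 7 libraries high in pineal genes the median was -0.13 and 5 members were called, with no share over all genes given for that setting.

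Beside dnah9l and the cfap100 identifier above, dnaaf9 and spag16 rose in young mutants. The reads of dnaaf9 were 1172, 1289, 1458, 1488 and 1337 in young wildtype and 3225, 3422, 3430.4, 2451 and 2977 in young mutant libraries (log2 fold change 1.195 ± 0.20 (SE), limma adjusted p = 0.000212), with old wildtype at 2002 to 2493 above young wildtype and overlapping young mutants. The central pair gene spag16 read 18.5 to 25.6 in young wildtype and 37.8 to 53.6 in young mutants (log2 fold change 1.05 ± 0.23 (SE), limma adjusted p = 0.00222). In old wildtype it stood at 18.3 to 37.4, overlapping young wildtype and below every young mutant library.

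The spoke gene cfap206 fell from a range of 46.7 to 88.5 to one of 13.5 to 27.5 (log2 fold change -1.66 ± 0.48 (SE), limma adjusted p = 0.0146), and cfap119 fell to a range of 8.49 to 17.9 (log2 fold change -1.18 ± 0.41 (SE), limma adjusted p = 0.0369). Together with dnaaf3 and ENSDARG00000090342 these were the 4 called lower. Members called with age in wildtype and not here, such as dnai3 (-0.40 here), spag8 (-0.39) and spag1b (-0.28), had negative values, and the difference between the 2 comparisons was not tested.

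In mutants, most members had a negative fold change with age, and 1 was called. Of 97 members, 84 were below 0 in old against young mutant telencephalon, with a median of -0.38 beside -0.01 over all genes, and 7 passed the adjusted p without a fold threshold, all lower, where 2.99% of all genes were lower and 3.19% higher. The rule called 1 lower and 0 higher, where 1.32% of all genes were called, 1.02% lower and 0.307% higher. At an unadjusted p under 0.05 there were 35 members. No share over all genes is given beside that count, so it is not read as a result about the members. The old mutant libraries lay wholly below the young mutant for 7 members (beside 3.06% of all genes) and above for 0 (beside 4.11%). The called gene was dnaaf6, an assembly factor of the PIH1 family. It read 110.3, 104, 142, 141 and 111 in young and 41.8, 35.9, 85.3, 80.4 and 38.0 in old mutants, without overlap (log2 fold change -1.19 ± 0.24 (SE), limma adjusted p = 0.00908). Leaving out young mutant library 1 gave 3 called members, old mutant library 3 or 4 gave 4 and 6, and old wildtype library 1, which shares the fit, gave 2. These shifts also have no share over all genes beside them and are not read as particular to the members. In the same libraries several marker lists of other cell types had lower median sums, but only the neuron sums lay apart. The microglia list did not have a lower median, at 684 to 838 RPM (median 720) in young and 611 to 826 (median 755) in old mutants. The ependymoglial list summed to 9543 to 11404.5 and 8648 to 11388, which overlapped. The neuron list summed to 2594 to 2848 RPM in young and 2083 to 2529 in old mutants, without overlap, with 1 of 5 genes called lower (tubb5, a tubulin) and 3 of 5 below 0. The choroid plexus and subcommissural organ list summed to 223 to 371 and 133 to 242, with 0 of 9 called and 8 below 0. The oligodendrocyte list summed to 1409 to 1677 and 722 to 1441, with 0 of 13 called and 10 below 0, and the leptomeningeal list to 9320 to 11879 and 3604 to 15861, with 2 of 10 called lower and 10 below 0. Their part in the result was not tested. The members summed to 861 to 1058 RPM in old mutant libraries and 970 to 1113 in young mutants.

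Old mutants were below old wildtype for 80 of 97 members, with a median of -0.33 beside -0.01 over all genes tested. The rule called 2 lower and 0 higher, beside 2.81% of all genes, 1.58% lower and 1.23% higher. At an unadjusted p under 0.05 there were 36 members, again without a share over all genes beside the count. Without the fold threshold 12 were lower and 2 higher, where 7.19% of all genes were lower and 7.7% higher. Old mutant libraries lay wholly below old wildtype for 8 members (beside 3.3% of all genes) and wholly above for 0 (beside 3.61%). The 2 called were dnaaf6, which stood at 92.6 to 143 in old wildtype and 35.9 to 85.3 in old mutants (log2 fold change -1.06 ± 0.24 (SE), limma adjusted p = 0.00755), and tekt1. The tektin gene tekt1 read 40.1, 40.3, 52.4, 46.9 and 48.5 in old wildtype and 32.8, 24.3, 20.2, 36.8 and 7.80 in old mutants (log2 fold change -1.03 ± 0.33 (SE), limma adjusted p = 0.0392). Radial spoke genes and the tektin and doublet group had medians of -0.54 each, with 8 of 9 and 15 of 15 genes below 0. Leaving out old mutant library 5, 4 or 1 gave 0, 6 and 5 called members, and leaving out old wildtype library 1, 2 or 3 gave 5, 1 and 1. No share over all genes is given beside these counts, so the shifts are not read as particular to the members.

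There were 8 members that differed between genotypes in their age effect, taken as mutant minus wildtype, beside 6.04% of all genes. The difference was above 0 for 3, where 2.58% of all genes were called, and below 0 for 5, where 3.46% were. Without the fold threshold these were 5 and 11, where 7.11% and 7.38% of all genes passed. Leaving out old wildtype library 2 or young mutant library 2 gave 5 called members, with no share over all genes given beside that count. The differences of dnaaf3, dnah9l, the 2 cfap100 identifiers and spag16 are those of genes already changed in young mutants. Of the others, spag1b gave 1.27, so that its decline with age was the smaller one in mutants (log2 fold change 1.27 ± 0.41 (SE), limma adjusted p = 0.0439). For dnaaf6 the difference was below 0 (log2 fold change -1.38 ± 0.34 (SE), limma adjusted p = 0.0111). For spag16, named above among the genes already changed in young mutants, the difference was also below 0 (log2 fold change -1.06 ± 0.32 (SE), limma adjusted p = 0.0339). The last was cfap263, a nexin link gene (log2 fold change -1.05 ± 0.29 (SE), limma adjusted p = 0.0212). In wildtype, cfap263 went from a range of 21.5 to 30.1 to one of 26.3 to 56.3 with age (log2 fold change 0.66 ± 0.21 (SE), limma adjusted p = 0.0189), and it gave -0.39 in mutants.

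The members shared part of their variation between telencephalon libraries. The median correlation between 2 members across the 20 libraries was 0.28 and it was 0.21 after each group mean was removed, where a member and another gene had a median near 0. Correlations are given as a description, over 20 libraries that share preparation and depth differences. With group means removed, 88 members had a positive correlation with the mean of the other members and 18 reached 0.7. The spoke gene cfap91 (0.88), cfap52 (0.87) and spag6 (0.86) were closest to it. Lowest were ccdc39 (-0.57), spag7 (-0.41) and spag1a (-0.24). By role the median was highest for tektins and doublet proteins (0.61), radial spoke (0.57) and central pair (0.56), and lowest for the 3 other sperm associated antigens (-0.14), spag7, spag9 and spag9a, of which spag9 encodes a scaffold for kinases and motor transport.

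**Figure D4:**
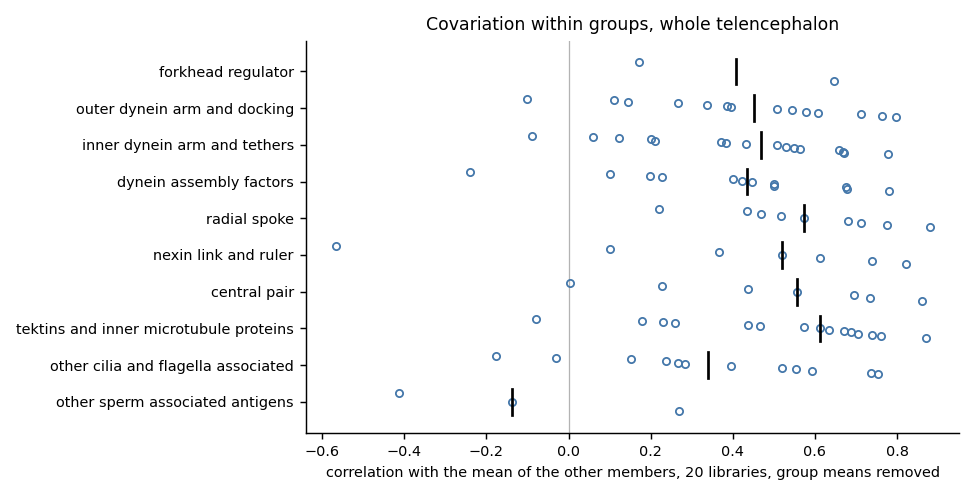
Correlation of each member with the mean of the other members over 20 whole telencephalon libraries, after removal of group means, by role; bars are role medians. Most points lie above 0, with the radial spoke, central pair and tektin groups highest and ccdc39 lowest at -0.57.

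The sum of all members, in RPM of recovered reads, was not corrected for transcript length. Young wildtype libraries spanned 1012 to 1135 and young mutants 970 to 1113. Old wildtype libraries spanned 1003 to 1100 and old mutants 861 to 1058, with all neighbouring ranges overlapping. Its ratio of means was 0.971 for old against young wildtype, 1.00 for young mutant against young wildtype, 0.905 for old against young mutant and 0.936 for old mutant against old wildtype. Old mutant libraries 1 and 2 had the lowest sums, at 861 and 877. Old mutant libraries 3, 4 and 5 stood at 1040, 1058 and 1000, within the young mutant range. In this sum dnaaf9 made 11.1%, and without it the young mutant to young wildtype ratio was 0.920. By reads, the other members with the largest counts were spag9a, spag9 and spag7.

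Genes of the motile cilium outside the naming rule, a list of 53 genes such as morn3, kif9 and ttc29, also had medians below 0 in each telencephalon comparison. In old against young wildtype 8 of 52 were called lower and 0 higher (beside 5.66% and 5.21% of all genes), with a median of -0.43. The axonemal gene ttc29 had a mean of 14.3 in old and 72.3 in young wildtype (log2 fold change -2.21). In young mutants against young wildtype 3 of 52 were called lower and 0 higher (beside 3.82% and 4.97% of all genes), with a median of -0.30. In old against young mutants 1 of 52 was called lower (beside 1.02% of all genes) with a median of -0.47. In old mutants against old wildtype 3 were called lower (beside 1.58%) with a median of -0.33. Ciliary transport and signalling genes are given for the first of these comparisons, where 10.9% of all genes were called. The lists are small, so their counts are not read as a result about these genes. None of 22 intraflagellar transport genes was called (median -0.16) and 1 of 28 BBSome and primary cilium genes was (median -0.32), while cytoplasmic dynein and dynactin had a median of 0.13 with 0 of 18 called. Of 19 multiciliogenesis regulators 3 were called lower and 1 higher, beside 5.66% and 5.21% of all genes. The genes called in that count are not named here. In mutants, a comparison other than that of the count just given, members of this list went both ways with age. They are described by their means, without an adjusted p. The multiciliation gene gmnc, upstream of foxj1 in frog and mouse, gave a mean of 111 in young and 47.1 in old mutants (log2 fold change -1.28). The means of rfx2 (1341 to 1127) and myb (16.7 to 9.85) were also lower in old mutants. Those of rfx3 (173 to 215) and tp73 (9.03 to 10.5) were higher. In old against young wildtype, ependymoglial markers had 1 of 18 called higher and 1 lower, with a median of 0.17. Their summed level was 7765 to 9386 RPM in young and 10078 to 11438 in old wildtype, opposite in direction to the members. That sum is weighted to abundant genes such as glul, at a mean of 58859 in young and 69376 in old wildtype. The median count over the list was not higher with age, at 1238 to 1872 in young and 974 to 1285 in old wildtype, which overlapped. Their part in the result was not tested.

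In Olig2+ cells few members were called. Among 98 tested, 57 were below 0 in mutant against wildtype, with a median of -0.24 beside -0.01 over all genes, and 5 were called lower and 2 higher, or 7.14% beside 19.7% of all genes, 12.7% lower and 6.99% higher. The share of members called was below the background. Groups lay apart with mutants higher for 8 members (beside 10.5%) and lower for 4 (beside 13.7%). Lists of other cell types moved as well. The neuron list summed to 5114 to 6172 RPM in wildtype and 1944 to 2453 in mutants, with 1 of 5 called lower and 5 below 0, and the choroid plexus and subcommissural organ list to 29.8 to 97.7 and 10.2 to 18.0, with 3 of 10 called lower and 9 below 0. Neither pair of ranges overlapped. Of 22 microglia genes 7 were called higher, at sums of 698 to 3975 and 1750 to 5198 that overlapped. Of 18 ependymoglial genes 5 were called lower and 3 higher. Their part in the result was not tested. The sign of the members' median depended on the setting, as it ran from -0.46 to 0.25 over the alternatives tried.

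The assembly factor cfap298, also known as kurly after a curved zebrafish mutant, read 471, 574, 496 and 499.8 in wildtype and 1152, 1645, 1499 and 901 in mutant libraries, without overlap (log2 fold change 1.31 ± 0.29 (SE), limma adjusted p = 0.00987). The light chain dnal4 identifier ENSDARG00000031116 read 154, 156, 109.6 and 105 and 291, 273, 255 and 403 (log2 fold change 1.22 ± 0.36 (SE), limma adjusted p = 0.0322). These were the 2 called higher. Normalised counts of mutant library 2 summed to 3.85e+07, where the other Olig2+ libraries summed to 2.02e+07 to 2.32e+07, so its values depend on the scaling. For this dnal4 identifier it had 68 reads in 9.61 M, and wildtype library 2 had 286 in 37.1 M. With libraries scaled to equal totals 1 member was called higher and 10 lower, without a share over all genes beside them. The tektin gene tekt2 read 22.6, 13.6, 13.6 and 14.5 in wildtype and 0, 0, 2.45 and 3.63 in mutants (log2 fold change -3.06 ± 0.89 (SE), limma adjusted p = 0.0287). The other 4 called lower were cfap36, spag6, spag9 and spag1a, and cfap36 overlapped through 1 mutant library at 554, where the other mutants read 60.5, 44.1 and 102. Leaving out mutant library 2, at 9.61 M reads, gave 17 called members, and leaving out mutant library 1 or 4 gave 4 and 2. Leaving out wildtype library 1, 2, 3 or 4 gave 1, 1, 2 and 11. The share of all genes called without these libraries is not given. The regulator foxj1a read 435, 413, 332 and 98.3 in wildtype and 55.5, 28.1, 171 and 153 in mutants (log2 fold change -1.78 ± 0.64 (SE), limma adjusted p = 0.0642).

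Mpeg1+ cells gave the largest negative median. Of 95 members, 76 were below 0 in libraries labelled mutant against those labelled wildtype, with a median of -1.80 beside 0.05 over all genes. The rule called 10 lower and 2 higher, or 12.6% of members beside 8.5% of all genes, of which 4.93% were higher and 3.57% lower. Groups lay apart with mutants lower for 26 members (beside 13.2% of all genes) and higher for 5 (beside 15.3%). Mutant libraries had 20 to 27 members at 0 and wildtype 2 to 13. The 3 wildtype libraries differed widely from each other, with median log2 deviations of 2.35, -0.43 and 0.84 in order of number, and wildtype library 1 was the shallowest at 6.11 M reads. The 4 mutant libraries lay at -0.89 to -0.31, so wildtype library 2 overlapped them. Wildtype libraries 1 and 3 lay above every mutant library.

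The 4 mutant libraries fell into 2 pairs. Chi-square per degree of freedom was 1.81 between libraries 1 and 2, 10.3 between 3 and 4, and 29.9 to 46.9 across the pairs. Some members split the same way, such as spag6 with 34, 25, 0 and 0 reads and ccdc40 with 0, 0, 76 and 61. The SE and adjusted p treat the 4 as separate, so agreement of all 4 may rest on fewer independent values. Averaging the alike libraries, taken as 1 with 2 and also 3 with 4 (10.3), left 2 mutant values and gave 0 called members. Averaging libraries 1 and 2 alone was not run. With wildtype library 2 left out 33 members were called, and with any 1 mutant library left out 2 or 3 were. The share of all genes called under these settings is not given, so the change in count is not read as particular to the members.

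The regulator foxj1a read 641, 283 and 194 in wildtype-labelled and 32.5, 45.3, 51.1 and 38.3 in mutant-labelled libraries, without overlap (log2 fold change -2.96 ± 0.53 (SE), limma adjusted p = 0.0137). Its paralogue foxj1b read 623, 326 and 44.4 and 111, 105, 91.5 and 65.8 (log2 fold change -1.18 ± 0.84 (SE), limma adjusted p = 0.409). The spoke gene rsph1 read 194, 198 and 85.9 and 2.95, 5.44, 5.77 and 19.1 (log2 fold change -4.29 ± 0.80 (SE), limma adjusted p = 0.0160). The doublet protein gene cfap53 read 77.5, 126 and 55.6 and 0, 1.81, 0 and 0 (log2 fold change -5.99 ± 0.81 (SE), limma adjusted p = 0.00496). The inner microtubule protein cfap210 read 513, 404 and 246 and 0, 1.81, 8.24 and 12.5 (log2 fold change -6.42 ± 1.01 (SE), limma adjusted p = 0.00900). The remaining 6 called lower were drc1, cfap99, rsph10b, cfap300, dnali1 and dnaaf9, at log2 fold changes of -4.48 to -1.81. The tested members cfap91, cfap157, cfap263, cfap299 and dnah11 were at 0 in all 4 mutant libraries. None of the 5 was called, and in wildtype libraries 1, 2 and 3 cfap91 had 26, 1 and 95 reads and cfap299 had 26, 108 and 0, so cfap299 overlapped the mutants. By role, the median was -3.48 for central pair (6 of 6 below 0), -2.44 for outer arm and docking, -2.17 for tektin and doublet genes, -1.80 for radial spoke (9 of 9 below 0), -0.88 for assembly factors and -0.56 for inner arm genes.

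Against this, ccdc39 read 110.3, 15.0 and 10.6 in wildtype-labelled and 453, 445, 477 and 517 in mutant-labelled libraries (log2 fold change 4.11 ± 0.75 (SE), limma adjusted p = 0.0157), and spag1a read 2126, 1072 and 2553 and 4825, 4779.6, 5339 and 4878 (log2 fold change 1.46 ± 0.29 (SE), limma adjusted p = 0.0211). Both were higher in every mutant library. In spag1a alone lay 29.7% of the members' reads of these cells. The summed level was 942, 566 and 621 RPM in wildtype libraries and 490 to 529 in mutants, a ratio of 0.723, and without spag1a it was 0.493.

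**Figure D5:**
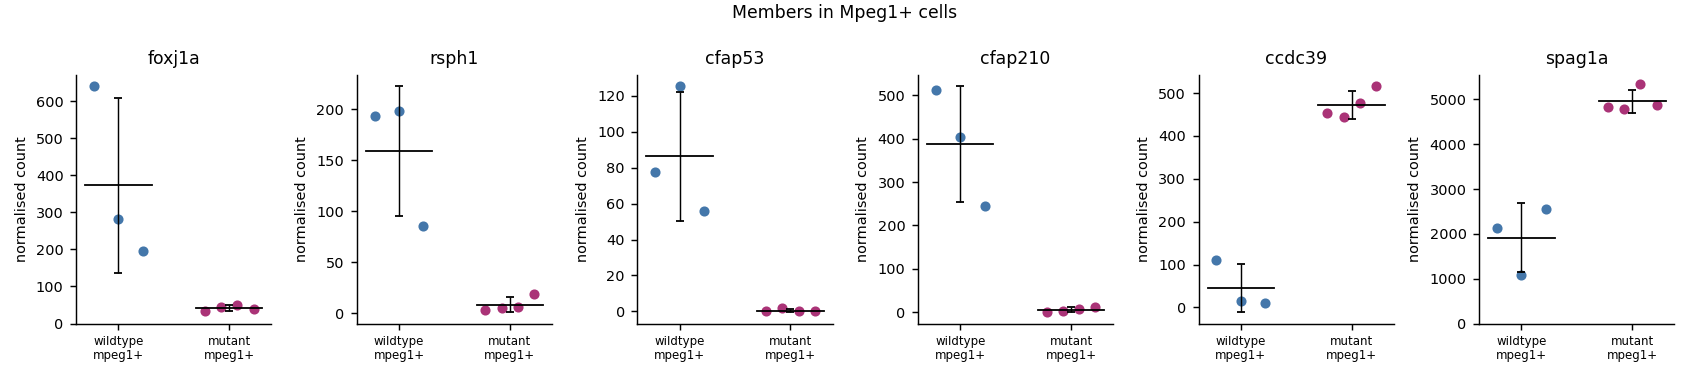
Normalised counts of foxj1a, rsph1, cfap53, cfap210, ccdc39 and spag1a in each Mpeg1+ library, for 3 labelled wildtype and 4 labelled mutant; bars are the mean and SD. The first 4 lie lower and the last 2 higher in all mutant-labelled libraries.

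Several marker lists of other cell types also lay lower in mutant-labelled libraries of these cells, and the neuron list overlapped. The neuron list stood at 220 to 975 RPM in wildtype and 327 to 420 in mutants. Its genes had log2 fold changes of -0.74 to 0.38 and none was called. The ependymoglial list had 10 of 18 genes called lower, with 5966 to 23797 RPM in wildtype and 3546 to 3717 in mutants. The leptomeningeal list stood at 15523 to 22771 in wildtype and 183 to 202 in mutants, with 5 of 11 genes called lower and 0 higher. Of its others, col5a1 (1.62), pcolcea (1.57) and lum (2.43) had log2 fold changes above 0. The choroid plexus and subcommissural organ list stood at 241 to 378 and 15.7 to 19.9, with 5 of 8 called lower. In wildtype libraries 1, 2 and 3 the ependymoglial list stood at 23797, 5966 and 12091, the order of the members' deviations. The leptomeningeal list, at 22771, 22689 and 15523, and the choroid plexus list, at 378, 260 and 241, did not have that order. Most of the leptomeningeal sum was epd, its defining gene, which read 290063 to 519236 in wildtype and 1958 to 2518 in mutants. The microglia list was 30555 to 43921 in wildtype and 41116 to 41807 in mutants. Of 50 motile cilium genes outside the naming rule 6 were called lower and 1 higher (beside 3.57% and 4.93% of all genes), with a median of -1.76. Their part in the result was not tested.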

How the data were processed

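RNA was sequenced from whole telencephalon and from sorted Olig2+ and Mpeg1+ cells. The authors aligned reads with STAR to GRCz10 and deposited 3 tables of signal values, which are gene counts divided by DESeq2 size factors, each scaled on its own, so no level was set across tables. Whole reads were recovered for 100% of values (tolerance 1e-06), and depth is their sum. No column was left unused. The members and lists were chosen with earlier results of these data known.

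Genes with a mean of at least 5 were tested with limma 3.58.1 (R 4.3.3; trend and robust) on log2(value + 1), with Benjamini-Hochberg adjustment over all genes of a comparison and called where the adjusted p was 0.05 or less and the change 2-fold or more. The log2(value + 1) scale understates the change of low genes. The 4 telencephalon groups shared 1 fit. Named genes were foxj1a, foxj1b, grna, grnb, called members, members with the most reads of each role and called genes of the lists. Role names came from a hand-made table of 10 roles. The code was tested on simulated data. The alternatives were pseudocounts of 0.25 and 4, no filter, a filter at 50, equal totals, DESeq2 1.42.0 or edgeR 4.0.16 in place of limma, from whole reads, no fold threshold, a replicate block, each library left out, a pineal term, leaving out libraries with a median of at least 100 over pineal genes, averaging alike libraries and other sums. Promoters, sequences and coordinates were not analysed here.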

Additional observations from a re-analysis of the deposited data

Results flagged for a closer look

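In 25 of 238 groups of 4 or 5 libraries, 1 library stood far from the others, where chance alone marks about 1 in 20. In young wildtype telencephalon these were library 4 for cfap99 (231), dnaaf3 (50.6) and tekt1 (82.2), library 3 for drc1 (142) and library 5 for cfap100 ENSDARG00000038538 (20.5). In old wildtype, library 1 stood apart for cfap298 (423), dnaaf9 (2493), dnal4 ENSDARG00000031116 (268) and spag9 (2155). In young mutants, library 1 had the lowest summed level (969.9 RPM) and library 5 had the lone count of cfap100 ENSDARG00000090342 (0.995). In old mutants these were library 3 for dnah9l (178) and library 4 for cfap100 ENSDARG00000038538 (26.0).

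In wildtype Olig2+ cells these were library 2 for cfap263 (33.2) and library 1 for tekt2 (22.6). In mutant Olig2+ cells these were library 2 for cfap36 (554) and cfap206 (245), library 3 for dnaaf6 (167) and library 4 for cfap100 ENSDARG00000090342 (94.4). In mutant-labelled Mpeg1+ cells these were library 4 for drc1 (3.33) and cfap100 ENSDARG00000038538 (17.5), library 3 for dnaaf6 (0.824) and spag8 (0.824), library 2 for cfap53 (1.81) and library 1 for cfap300 (0). Of these, cfap53 rested on 2 reads, dnaaf6 and spag8 on 1 read each, and cfap300 on 0 reads beside 2 in the others. The chance rate given above need not hold for counts this low.

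The age effect differed between genotypes for 8 members, in log2 units of mutant minus wildtype. The values were 4.59 for dnaaf3, 3.44 for cfap100 ENSDARG00000090342 and 1.27 for spag1b, and -4.54 for dnah9l, -3.85 for cfap100 ENSDARG00000038538, -1.38 for dnaaf6, -1.06 for spag16 and -1.05 for cfap263. These have a limma adjusted p between 1.13e-05 and 0.0439.

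By label, for 6 members every mutant library lay on one side of wildtype in 1 cell population and on the other side in another. The difference between populations was not tested, and no share over all genes is given beside the 6. Each of them sets Mpeg1+ cells against another population. In Mpeg1+ cells grnb ran against the labels, and the mean of dnaaf3l went opposite to its direction in young telencephalon and Olig2+ cells. The opposite directions of the 6 members therefore hold only as far as the labels do. The log2 fold change was 0.56 for cfap53 and 1.195 for dnaaf9 in young mutant telencephalon, with Mpeg1+ cells lower, and 0.95 for rsph1 and 1.34 for spag8 in Olig2+ cells, with Mpeg1+ cells lower. In Mpeg1+ cells it was 1.46 for spag1a, with Olig2+ cells lower, and 0.58 for spag9, with young mutant telencephalon lower.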

How the results depend on the processing

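Counts of called members in this section have no share over all genes under the same setting beside them. They show how the calls move and are not read as particular to the members. With a filter at 50, called members numbered 3 for old against young wildtype, 2 for young mutant against young wildtype, 1 for old mutant against old wildtype, 2 for the difference of the age effects and 6 in Mpeg1+ cells. Without the fold threshold they numbered 32, 25, 14 (old mutant against old wildtype), 7 (old against young mutant) and 16 (difference). Without libraries high in pineal genes they numbered 5 for young mutant against young wildtype, 7 for old mutants against old wildtype, 2 for old against young mutants and 5 for the difference. A pseudocount of 4 gave 1 for old mutant against old wildtype. In Olig2+ cells equal totals gave 11 (1 higher and 10 lower) and DESeq2 gave 16 (8 higher and 8 lower). In Mpeg1+ cells DESeq2 gave 34 and averaging alike libraries 0. Replicate numbers gave no clear pairing of the samples (lowest correlation of same-numbered deviations from -0.31 to 0.00, and a highest of 0.48). That highest value came from old against young mutants, where 3 of 5 libraries matched their own number best. The replicate block gave 0 in Mpeg1+ cells and 2 for old against young mutant. Leaving out each library gave 9 to 12, 7 to 10, 1 to 6, 0 to 6 and 5 to 9 in the telencephalon comparisons in the report's order, 1 to 17 in Olig2+ and 2 to 33 in Mpeg1+ cells. Ratios of summed levels ran from 0.955 to 0.988, 0.992 to 1.03, 0.884 to 0.930, 0.914 to 0.962, 0.823 to 1.04 and 0.657 to 0.865 in the same order without the difference. Without the most abundant member the ratio was 0.920 for young mutant against young wildtype and 0.493 in Mpeg1+ cells. The sum without the 15 members of the 2 roles named other was chosen after seeing the data. Signs turned for foxj1b in old against young wildtype (0.21 without libraries high in pineal genes, and -0.26 to 0.035 over each library left out, the latter without old wildtype 1) and for the foxj1a difference (-0.0036 to 0.23 over each library left out, the former without old mutant 1), and the cause was not tested. The median of all genes was -0.01 in Olig2+ cells, and -0.27 and 0.19 with equal totals and DESeq2. It was 0.05 in Mpeg1+ cells, and -0.16, -0.13 and -0.18 with equal totals, edgeR and DESeq2. Depth limits members near the floor of 3 reads.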
